A study of Mus musculus with 2 samples.

Results

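Transcripts of 10 circadian clock genes (Arntl, Npas2, Cry1, Per1, Per2, Nr1d1, Nr1d2, Dbp, Tef and Ciart) were followed in 2 mouse liver sections measured by 10x Visium spatial transcriptomics (ST). The genes were taken by symbol from the 32285 gene rows of each section's count matrix, and all 10 were found in both. In this assay tissue is placed on a grid of barcoded spots that capture its RNA, and unique molecular identifiers (UMIs) let every molecule be counted singly. A spot is a small area that can hold several cells of different types.

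Both mice were male C57BL/6J animals bought at 5 weeks of age. The NCD section came from 1 mouse of the control group. The HFD section came from 1 mouse that, after acclimation, had received a 60% high-fat diet for 14 weeks before an 8-week intervention. Both groups were given distilled water by mouth once daily during the intervention, and no other agent is named for them. The sources used here name no change of diet in that time. The labels carry the entries "Immune cell" and "hematopoietic stem cell", but the tissue entry is liver, and the 4 hepatocyte markers Alb, Apoa1, Ttr and Apoc3 together reached 78923 counts per 1000000 UMIs (CPM) in the NCD section against 87843 CPM in the HFD section, with none of them at 0. Time of day and feeding state at collection were not given in the sources used here. With 1 section per diet, diet, animal, section, time of collection, feeding state and any difference in slide cannot be told apart. No test between groups was possible, and the exact 95% intervals below reflect counting error alone.

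The circadian clock is a transcriptional feedback loop that runs in nearly every cell and gives many liver transcripts a daily rhythm. ARNTL (also called BMAL1) pairs with CLOCK or its relative NPAS2 and activates genes through E-box elements, among them the repressor genes Per1, Per2, Cry1 and Ciart, the nuclear receptor genes Nr1d1 and Nr1d2, and the output factor genes Dbp and Tef. PER and CRY proteins then inhibit the ARNTL complex. The NR1D1 and NR1D2 proteins (REV-ERBs) repress Arntl, Npas2 and Cry1 through elements called ROREs, while DBP and TEF activate genes through D-box elements. In mouse liver the transcripts of Arntl and Npas2 therefore peak many hours apart from those of Dbp, Nr1d1, Per1, Per2 and Ciart, and feeding time sets the phase of the liver clock.

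Promoter sequences show which members carry these elements close to their start. RefSeq windows on GRCm38.p6, of 250 bases before and 50 bases after an annotated start, were matched by symbol for 9 of the 10 members, in 12 windows because some genes have several starts. Per2 was not among them. Both strands were searched for the E-box CACGTG, its variant CACGTT, the D-box forms TTATGTAA and TTACGTAA, the RORE forms TAGGTCA and TGGGTCA, and the cAMP response element TGACGTCA, none of which overlap in the windows printed here. Ciart is shown because it had the highest ratio between the sections of the 10 members and its window holds 3 matches. Per1 and Cry1 are shown as 2 repressor genes with an E-box whose ratios between the sections differed, Nr1d1 for a match to the E-box variant, and Arntl for the only RORE match among these windows. Capitals mark the matches, and the variant is read as AACGTG where it lies on the other strand.
Ciart (chr3:95882179-95882478, minus strand): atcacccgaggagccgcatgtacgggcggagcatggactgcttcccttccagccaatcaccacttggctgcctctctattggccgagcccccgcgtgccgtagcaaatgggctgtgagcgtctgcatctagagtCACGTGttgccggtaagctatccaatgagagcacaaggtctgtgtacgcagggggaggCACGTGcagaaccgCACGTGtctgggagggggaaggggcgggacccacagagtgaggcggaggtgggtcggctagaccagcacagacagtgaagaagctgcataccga
Per1 (chr11:69098699-69098998, plus strand): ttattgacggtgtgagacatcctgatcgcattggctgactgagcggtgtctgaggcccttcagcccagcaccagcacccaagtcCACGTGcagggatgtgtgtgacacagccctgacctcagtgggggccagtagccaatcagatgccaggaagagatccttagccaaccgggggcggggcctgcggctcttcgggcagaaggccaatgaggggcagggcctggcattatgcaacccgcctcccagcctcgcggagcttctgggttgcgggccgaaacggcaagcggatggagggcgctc
Cry1 (chr10:85185005-85185304, minus strand): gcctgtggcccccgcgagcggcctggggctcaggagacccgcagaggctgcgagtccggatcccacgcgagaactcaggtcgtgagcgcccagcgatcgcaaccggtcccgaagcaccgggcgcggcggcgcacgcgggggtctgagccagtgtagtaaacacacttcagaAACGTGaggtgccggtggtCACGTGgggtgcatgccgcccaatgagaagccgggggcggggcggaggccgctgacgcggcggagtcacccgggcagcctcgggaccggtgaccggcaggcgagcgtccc
Nr1d1 (chr11:98775328-98775627, minus strand): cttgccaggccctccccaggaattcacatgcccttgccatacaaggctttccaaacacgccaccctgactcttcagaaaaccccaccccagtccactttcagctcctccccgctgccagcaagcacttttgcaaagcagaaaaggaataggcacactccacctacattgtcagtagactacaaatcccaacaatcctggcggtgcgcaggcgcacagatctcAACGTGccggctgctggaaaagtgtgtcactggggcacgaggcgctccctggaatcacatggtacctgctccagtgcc
Arntl (chr7:113207261-113207560, plus strand): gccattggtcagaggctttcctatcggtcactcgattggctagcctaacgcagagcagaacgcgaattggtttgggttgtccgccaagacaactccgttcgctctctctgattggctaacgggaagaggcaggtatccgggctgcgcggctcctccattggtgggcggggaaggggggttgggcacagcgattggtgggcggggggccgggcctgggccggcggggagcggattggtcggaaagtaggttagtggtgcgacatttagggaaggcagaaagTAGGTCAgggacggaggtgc

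The 3 E-boxes of Ciart begin 116, 58 and 44 bases before the start. The E-box of Per1 begins 166 bases before the first of its 2 starts, and the window of the second start holds no match. In Cry1 the E-box lies 60 bases and the variant 79 bases before the start. Nr1d1 has the variant 28 bases before the start, and each of the 2 windows of Tef has an E-box, at 127 and 138 bases before the start. The RORE of Arntl begins at base 31 after the second of its 2 starts. No window of Npas2, Nr1d2 or Dbp holds any of these letters. Over all 32817 windows of the table, 7.15% hold the E-box, 4.69% the variant, 1.05% a D-box, 6.46% a RORE and 1.79% the cAMP response element. These matches are a description of the letters only.

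Over tissue, 3692 spots of the NCD section held 29037988 UMIs (median 4187.5 per spot), and 3594 spots of the HFD section held 72118803 (median 18549). The 2 sections share 3173 of their barcodes over tissue, as each grid carries the same printed set. The 1300 off-tissue spots of the NCD section had a median of 3383 UMIs, and the members' CPM there were close to those over tissue (Dbp 31.1 against 25.2 CPM). For the HFD section the median off tissue was 1175.5 UMIs, and Dbp was at 61.1 CPM there against 75.8 CPM over tissue. CPM below are pooled over all spots over tissue of a section, and fewer cells of a type and less RNA per cell cannot be told apart in them. Ratios were called past the fold at 2-fold for genes whose summed UMIs reached 200. Across the 10665 genes with that minimum the median log2 ratio of HFD to NCD was 0.23.

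Per1, Per2, Dbp and Ciart were at least 2-fold higher in the HFD section, and Arntl was at least 2-fold lower. Nr1d1, Nr1d2, Tef and Cry1 stayed within 2-fold, and Npas2 was too rare to be counted. Of the 10 members, 9 had at least 200 UMIs, Per2 and Ciart only through their HFD counts, which is where they were high. Thus 4 of 9 were past the fold on the higher side, against 9.3% of all genes tested, and 1 of 9 on the lower side, against 1.84% of all genes. The median log2 ratio of these 9 was 0.67.

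**Figure D1:**
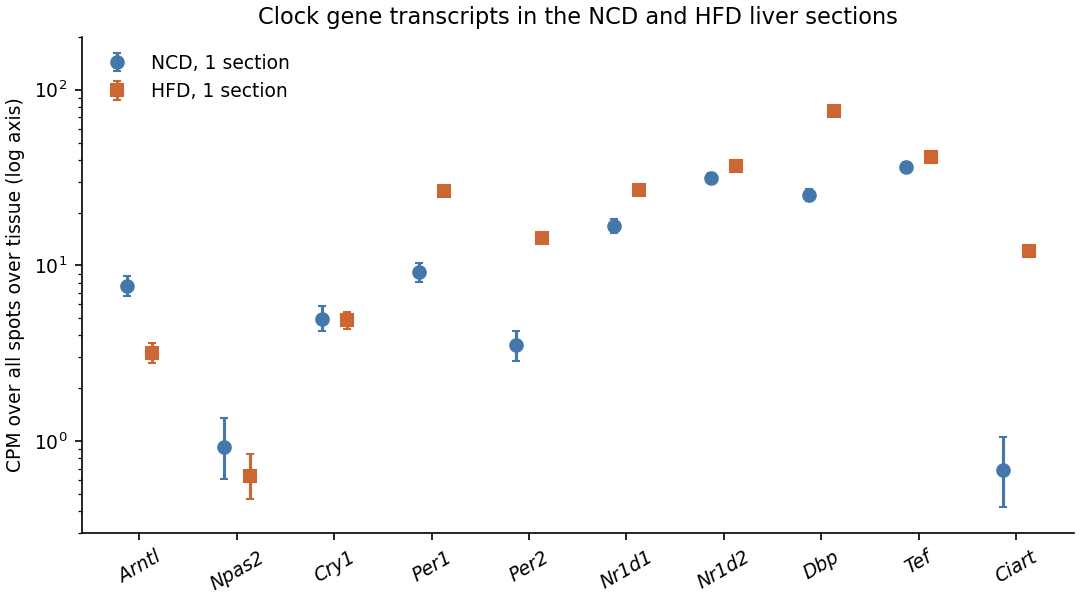
CPM of each clock gene, pooled over all spots over tissue, on a log axis (NCD section circles, HFD section squares, 1 section each). Bars are exact 95% Poisson intervals for counting error, and Arntl lies lower while Per1, Per2, Dbp and Ciart lie higher in the HFD section.

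Arntl encodes the activator without which the loop stops. It gave 223 UMIs, or 7.68 CPM (6.70 to 8.76), in the NCD section against 230 UMIs, or 3.19 CPM (2.79 to 3.63), in the HFD section. The HFD level was 2.41-fold lower (1.99 to 2.91), a log2 ratio of -1.27. Arntl lies at chr7:113207465-113314126 on the plus strand of GRCm38.

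Npas2, whose product can stand in for CLOCK as the partner of ARNTL, had 27 UMIs (0.930 CPM) in the NCD section against 46 UMIs (0.638 CPM) in the HFD section. Its log2 ratio of -0.54 had an interval of -1.26 to 0.20, so no difference was detectable at this depth. CLOCK's own transcript, which varies little over the day in liver, was at 14.9 CPM in the NCD section against 13.5 CPM in the HFD section (log2 ratio -0.14, -0.31 to 0.03).

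Among the repressors, Ciart had the widest gap. CIART (also known as CHRONO) binds the ARNTL complex and inhibits it. In the NCD section 20 UMIs were counted over all 3692 spots, 0.689 CPM (0.421 to 1.06). In the HFD section there were 872 UMIs, 12.1 CPM (11.3 to 12.9). The HFD level was 17.6-fold higher (11.3 to 28.9), and Ciart stood at rank 21 of the 10665 genes ordered by this ratio. An antisense gene, C920021L13Rik, covers the whole of Ciart (chr3:95878503-95882251, 3749 bases) and went the other way, from 13.2 CPM in the NCD section to 4.04 CPM in the HFD section. Whether strand was used in counting was not given in the sources used here.

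Per2, which encodes a repressor needed for a stable daily cycle, had 102 UMIs (3.51 CPM, 2.86 to 4.26) in the NCD section against 1033 UMIs (14.3 CPM, 13.5 to 15.2) in the HFD section. This was 4.08-fold higher (3.32 to 5.05). Per1, a paralog that also answers quickly to glucocorticoids and cAMP, had 265 UMIs (9.13 CPM, 8.06 to 10.3) in the NCD section against 1918 UMIs (26.6 CPM, 25.4 to 27.8) in the HFD section, 2.91-fold higher (2.56 to 3.33). The intervals of the 2 sections lie apart for both genes.

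Cry1, the repressor whose transcript peaks late in the cycle, did not share this gap. It had 145 UMIs (4.99 CPM) in the NCD section against 351 UMIs (4.87 CPM) in the HFD section. The log2 ratio of -0.04 had an interval of -0.32 to 0.25. One NCD spot alone held 8 of the 145 UMIs.

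The REV-ERB genes differed in size. Nr1d1, with 488 UMIs (16.8 CPM, 15.3 to 18.4) in the NCD section against 1935 UMIs (26.8 CPM, 25.6 to 28.1) in the HFD section, was 1.60-fold higher (1.44 to 1.77). Nr1d2 had 918 UMIs (31.6 CPM) and 2666 UMIs (37.0 CPM), and its log2 ratio of 0.23 (0.12 to 0.34) was that of the median gene. Nr1d1 shares 1075 bases with Thra on the opposite strand, and Thra was at 8.37 CPM in the NCD section against 11.6 CPM in the HFD section.

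Of the output factors, Dbp differed by more than Tef. DBP drives daily expression of detoxification and other metabolic genes in liver. It had 731 UMIs (25.2 CPM, 23.4 to 27.1) in the NCD section against 5466 UMIs (75.8 CPM, 73.8 to 77.8) in the HFD section, 3.01-fold higher (2.79 to 3.26). Tef, a close relative, had 1060 UMIs (36.5 CPM) and 3000 UMIs (41.6 CPM), a log2 ratio of 0.19 (0.09 to 0.29), just under the median of all genes. Dbp (chr7:45705088-45710203) shares 737 bases with Sphk2 on the opposite strand, which was lower in the HFD section, at 24.5 against 34.1 CPM.

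At the level of single spots, Dbp was detected in 70.8% of HFD spots and 15.8% of NCD spots. After every spot had been drawn down to 3000 UMIs, which 2107 NCD and 3538 HFD spots reached, the shares were 20.8% (19.5 to 22.2) and 7.78% (6.68 to 9.01). Off-tissue spots at the same depth gave 23.9% for the HFD section and 9.18% for the NCD section. The shares over tissue were thus at the level off tissue and are not read as detection in the cells under a spot. The gap between the 2 sections was present in both kinds of spot. For Ciart the shares over tissue at 3000 UMIs were 0.285% (0.105 to 0.619) in the NCD section against 3.84% (3.23 to 4.53) in the HFD section. Off tissue they were 0.135% (1 of 741 spots) for NCD and 2.82% (4 of 142 spots, 0.773 to 7.06) for HFD.

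Members known to peak at different times were set against each other within a section, in which the section's total cancels. With 1 section per diet and the time of collection not given, these ratios do not measure phase. The 7 members driven through E-boxes or D-boxes (Per1, Per2, Nr1d1, Nr1d2, Dbp, Tef and Ciart) were summed and set against the 3 members repressed through ROREs (Arntl, Npas2 and Cry1). Cry1, which is known to answer to both kinds of element, was placed with the latter. There were 3584 against 395 UMIs in the NCD section, a ratio of 9.07, and 16890 against 627 UMIs in the HFD section, a ratio of 26.9. The HFD ratio was 2.97-fold higher (2.60 to 3.39), and the log2 difference of 1.57 went to 1.33 (1.14 to 1.53) with Dbp left out. The arms did not move as wholes. Among the 3 RORE members only Arntl was lower beyond its interval, and the HFD to NCD log2 ratio of Cry1 was -0.04. Nr1d2 (0.23) and Tef (0.19) in the other arm were near the median gene. A ratio with Arntl left out was not computed. The pair of Dbp over Arntl alone gave 3.28 in the NCD section against 23.8 in the HFD section, 7.25-fold higher (5.90 to 8.89). Nr1d1 over Npas2 gave 18.1 and 42.1, a log2 difference of 1.22 (0.46 to 1.95) that rests on 27 and 46 Npas2 UMIs.

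With RNA off tissue subtracted, the log2 difference between the arms was 2.47, Dbp went to a log2 ratio of 2.57, and Nr1d1 and Tef also passed 2-fold (log2 1.58 and 1.26). No interval was computed after subtraction, and the NCD median off tissue (3383 UMIs) was close to that over tissue (4187.5). Off tissue itself, the log2 ratio of HFD to NCD was 4.30 (2.77 to 6.29) for Ciart, 1.40 for Per2, 0.97 (0.65 to 1.29) for Dbp, 0.83 for Per1, -0.12 (-0.66 to 0.39) for Nr1d1 and -1.73 for Arntl.

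Other cell types also differed between the sections. Summed markers of stellate cells and fibroblasts were at 513.3 CPM (HFD) and 233.7 CPM (NCD), with 3 of 6 genes past 2-fold, and smooth muscle markers at 68.7 and 25.9 CPM, with 3 of 4. In the same order, bile duct markers were at 13.6 and 6.44 CPM, sinusoidal endothelium at 222.7 and 145.8 CPM, T cells at 5.77 and 8.16 CPM, and B and plasma cells at 4.30 and 16.4 CPM. Red blood cell genes were at 1246 CPM in the HFD section against 6676 CPM in the NCD section, with all 4 past 2-fold. Kupffer cell markers were at 184.5 and 194.3 CPM, with 3 of 5 past 2-fold lower in the HFD section, and hepatocyte markers differed by a log2 ratio of 0.15. The part of these cell types in the members' ratios was not tested.

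The position of a spot in the lobule was read from its hepatocyte genes. Liver lobules run from the portal triad, where blood enters, to the central vein, and hepatocytes along this axis express different enzymes. Each spot with at least 1000 UMIs got a zonal score, the UMIs of 7 pericentral genes divided by those of the same genes and 8 periportal genes, and the spots of a section were split by this score into 3 zones of equal spot number (periportal, midlobular and pericentral). The zones were set within each section, as the summed pericentral genes stood at 11089 CPM in the NCD section and only 6300 CPM in the HFD section. Pck1 and Cyp7a1, which were not in the score, followed it. Pck1, a periportal enzyme of gluconeogenesis, was at 2195, 1764 and 1349 CPM from the periportal to the pericentral zone of the NCD section, and at 2140, 1852 and 1566 CPM in the HFD section. Cyp7a1, a pericentral enzyme of bile acid synthesis, stood at 18.0, 44.1 and 70.2 CPM in the NCD section and at 21.2, 35.4 and 50.6 CPM in the HFD section.

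The difference between the livers was present in every zone for the members that were past 2-fold. Arntl had log2 ratios of HFD to NCD of -1.22, -1.27 and -1.38 in the periportal, midlobular and pericentral zones. Per1 had 1.59, 1.80 and 1.24, and Per2 had 1.74, 2.36 and 1.94. Each of these 9 intervals excluded 0, and those of 1 gene overlapped each other.

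Ciart had 3.39 (2.40 to 4.62), 4.64 (3.40 to 6.28) and 4.35 (3.29 to 5.68), from 8, 5 and 7 NCD UMIs. Nr1d1 had 0.61, 0.82 and 0.66. Dbp was the exception to this evenness. Its log2 ratio was 0.93 (0.74 to 1.13) in the periportal zone, 1.78 (1.59 to 1.98) in the midlobular zone and 2.06 (1.86 to 2.26) in the pericentral zone.

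**Figure D2:**
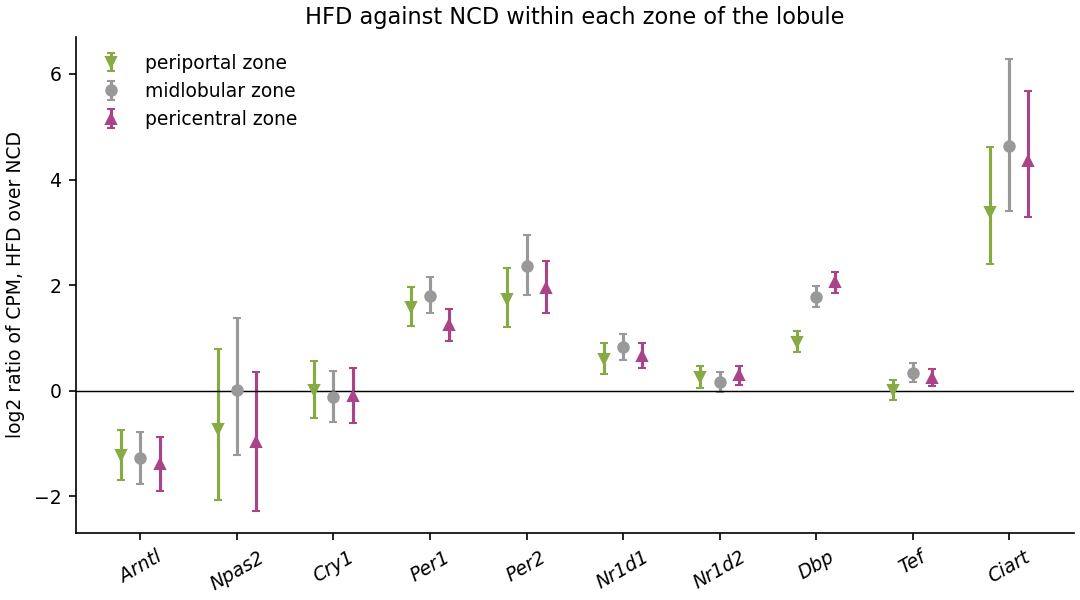
Log2 ratio of HFD to NCD CPM for each clock gene within the periportal, midlobular and pericentral zones of spots. Bars are exact 95% intervals for counting error, and the periportal ratio of Dbp (0.93) lies below its midlobular (1.78) and pericentral (2.06) ratios without overlap.

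Across the lobule, Dbp sloped in opposite directions in the 2 livers, and the other members had ratios within 1.5-fold or intervals that included 0. In the NCD section Dbp was at 31.6, 22.8 and 22.8 CPM in the periportal, midlobular and pericentral zones, from 237 UMIs in the periportal and 232 in the pericentral zone. In the HFD section it was at 60.4, 78.3 and 94.8 CPM, from 1817 and 2049 UMIs in the outer zones. The pericentral level was thus lower than the periportal one in the NCD section, with a log2 ratio of -0.47 (-0.74 to -0.21), and higher in the HFD section, with one of 0.65 (0.56 to 0.74).

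The HFD slope of Dbp was 1.57-fold (1.47 to 1.67) and passed the fold of 1.5 used along the lobule, whereas the NCD slope was 1.39-fold (1.15 to 1.67) and did not. In the HFD section 8 members had at least 200 UMIs in the outer zones. Dbp was the 1 past the fold on the pericentral side, where 4.06% of 9290 genes stood, and 0 were past it on the periportal side, against 2.91%. In the NCD section 4 members had that minimum (Nr1d1, Nr1d2, Dbp and Tef), and 0 were past the fold on either side, against 6.22% and 1.96% of 5516 genes.

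With 5 bins of the zonal score, Dbp in the HFD section stood at 58.3, 68.2, 75.1, 89.8 and 97.8 CPM from the periportal to the pericentral end, higher at every step. The NCD bins were at 32.4, 30.4, 21.5, 21.003 and 24.0 CPM, with the step after the first 2 bins and no order among the last 3 beyond their intervals. Depth ran in opposite directions too, with median UMIs per spot of 4635 in the periportal and 7603 in the pericentral zone of the NCD section, and 24333 and 17172 in the HFD section. With all spots drawn down to 3000 UMIs the log2 ratios of Dbp were -0.40 (NCD) and 0.59 (HFD), and with RNA off tissue subtracted they were -1.15 and 0.70, both then past 1.5-fold.

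**Figure D3:**
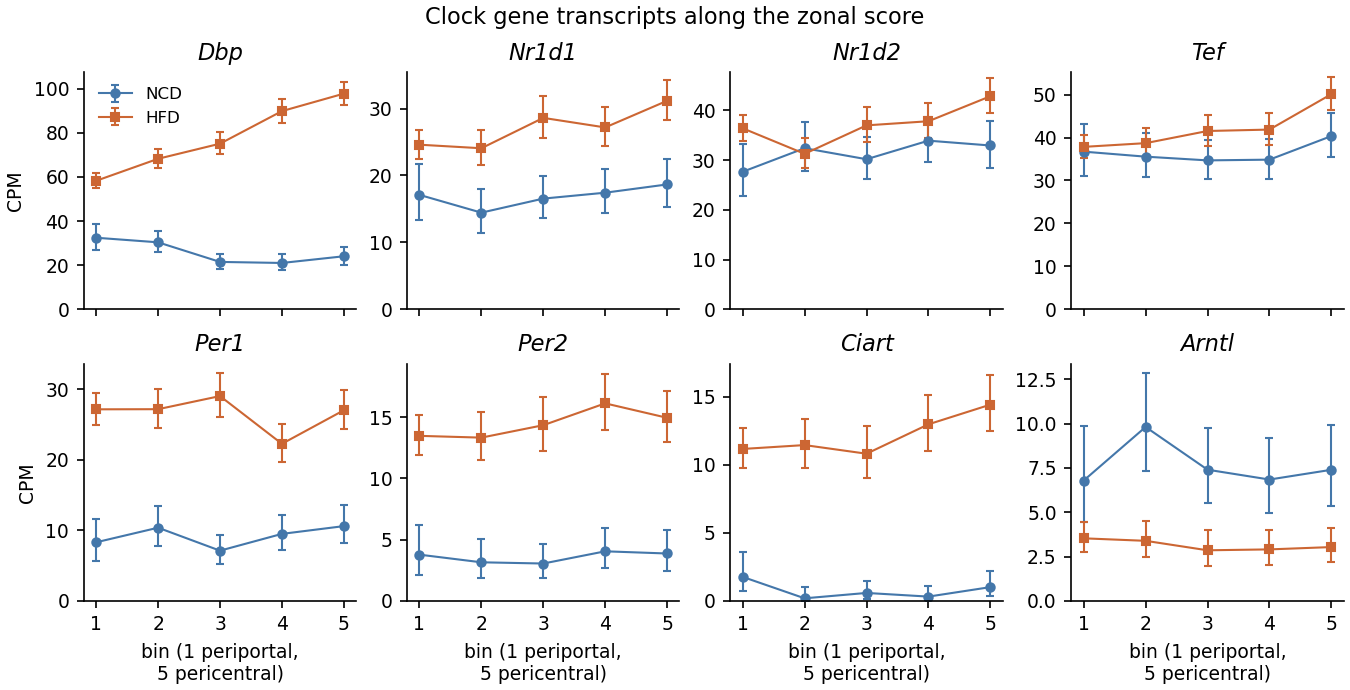
CPM of 8 clock genes along 5 bins of spots ordered by zonal score, from periportal (1) to pericentral (5), in the NCD (circles) and HFD (squares) sections. Bars are exact 95% Poisson intervals, and Dbp climbs from 58.3 to 97.8 CPM in the HFD section while it is at 32.4 CPM in the first and 24.0 CPM in the last bin in the NCD section.

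Other members had smaller slopes in the HFD section. The pericentral to periportal log2 ratio was 0.30 (0.14 to 0.46) for Nr1d1, 0.26 (0.13 to 0.39) for Nr1d2, 0.31 (0.18 to 0.43) for Tef and 0.32 (0.09 to 0.55) for Ciart, against a median of 0.08 over all genes tested. For Per1 it was -0.12 (-0.28 to 0.04), for Cry1 -0.19 (-0.57 to 0.19) and for Arntl -0.31 (-0.79 to 0.16). Per2, at 0.21, had an interval that reached down to 0.00. In the NCD section every member other than Dbp had an interval that included 0, with Nr1d1 at 0.25 (-0.09 to 0.60) and Nr1d2 at 0.22 (-0.02 to 0.47). The HFD minus NCD difference in slope was 0.05 (-0.33 to 0.43) for Nr1d1 and 0.04 (-0.25 to 0.32) for Nr1d2. With RNA off tissue subtracted, the NCD slopes were 1.57 for Nr1d1, 0.96 for Nr1d2 and 0.66 for Tef, all past 1.5-fold, against 0.33, 0.28 and 0.33 in the HFD section. These subtracted slopes have no interval, and in the NCD section they rest on few remaining UMIs. Nr1d1, for example, had 117 UMIs in the 951 periportal NCD spots before subtraction, against 141 UMIs in the 1300 off-tissue spots.

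**Figure D4:**
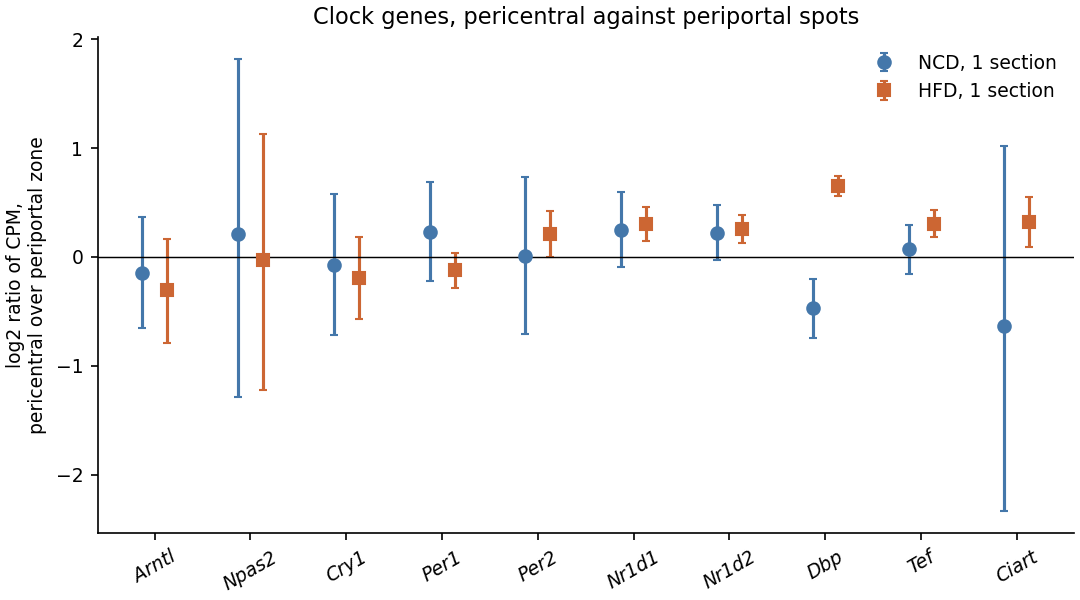
Log2 ratio of CPM in the pericentral over the periportal zone for each clock gene, in the NCD (circles) and HFD (squares) sections. Bars are exact 95% intervals for counting error, and Dbp is the gene whose 2 intervals lie on opposite sides of 0 (-0.47 and 0.65).

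Cell types other than hepatocytes varied along the same axis. Smooth muscle markers were at 43.8 CPM in the periportal and 5.11 CPM in the pericentral zone of the NCD section, and at 105.1 and 28.1 CPM in the HFD section. Red blood cell genes were at 6575, 8374 and 4902 CPM in the periportal, midlobular and pericentral zones of the NCD section, and at 884.7, 1487 and 1520 CPM in those of the HFD section. Mitochondrial transcripts made up 9.50% and 7.55% of UMIs in the periportal and pericentral zones of the NCD section and 5.92% and 5.32% in the HFD section. Their part in the slope of Dbp was not tested.

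A further 14 clock genes were examined, and 12 had at least 200 UMIs. Of these 12, 1 was past 2-fold higher, against 9.3% of all genes, and 0 lower, against 1.84%. Their median log2 ratio was 0.37 against 0.23 over all genes. The gene past 2-fold was Bhlhe40, which encodes the E-box repressor DEC1. It was at 13.3 CPM in the NCD section against 84.9 CPM in the HFD section (log2 2.68, 2.53 to 2.83). The other PAR bZIP factor gene, Hlf, had a log2 ratio of 0.43 (0.30 to 0.56), the RORE activator gene Rora 0.02, the D-box repressor gene Nfil3 0.02, and Per3 and Cry2 had 0.34 and 0.25. Along the lobule, the pericentral to periportal log2 ratio of Hlf was 0.49 (0.34 to 0.64) on HFD against 0.18 (-0.12 to 0.49) on NCD, within 1.5-fold in both livers. The difference of the 2 had an interval of -0.04 to 0.65. For Bhlhe40 the log2 ratio was -0.18 (-0.27 to -0.10) on HFD against -0.60 (-0.97 to -0.24) on NCD, a difference of 0.42 (0.04 to 0.79).

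Of 11 genes known as clock output in liver, 10 had the minimum and 4 were past 2-fold higher (9.3% of all genes were), with a median log2 ratio of 0.88. Of these 4, Usp2 with 186 and Wee1 with 111 NCD UMIs reached the minimum only with their HFD counts. Rgs16, a regulator of G protein signalling with a daily rhythm in liver, was at 8.92 CPM in the NCD section against 106.7 CPM in the HFD section (log2 3.58, 3.40 to 3.76). Noct, a rhythmic gene for the protein nocturnin, had 2.54 (2.40 to 2.69). Usp2, a gene for a ubiquitin protease, had 2.36 (2.15 to 2.58), and Wee1, which encodes a mitotic kinase, had 1.18 (0.89 to 1.48). Por, the electron donor of the cytochrome P450 enzymes, was lower within 2-fold, at 434.1 and 250.5 CPM, and Alas1, the first enzyme of haem synthesis, was at 296.0 and 500.4 CPM. Slopes along the lobule also differed between the sections for some output genes. The HFD minus NCD difference was 0.79 (0.39 to 1.19) for Noct and 0.67 (0.18 to 1.16) for Rgs16. It went the other way for Cyp7a1, at -0.71 (-1.02 to -0.40), and for Por, at -0.15 (-0.24 to -0.06).

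Lists of genes that answer to signals known to reset or drive these rhythms were set beside them. In the glucocorticoid list, 2 of 4 genes with the minimum were past 2-fold higher, against 9.3% of all genes. They were Fkbp5 (log2 1.46) and Tsc22d3 (1.17). Of the 7 genes tied to body temperature, 5 were past 2-fold higher and 2 lower, where 9.3% and 1.84% of all genes stood. The higher ones encode heat shock proteins and were Hspa1a (2.40), Hspa1b (2.32), Hsph1 (1.89), Hspa8 (1.08) and Dnajb1 (1.00). Dnajb1 lay at the threshold, and 4 were past it when the total left out mitochondrial and the 20 most abundant genes. Hspa1a had 75 NCD UMIs. Hspa1a and Hspa1b are near-identical copies whose reads can be split between them.

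The 2 lower genes encode cold-inducible RNA-binding proteins, which follow the daily dip in body temperature. Cirbp was at 39.4 CPM in the NCD section against 6.24 CPM in the HFD section (log2 -2.66, -2.82 to -2.50), and Rbm3 at 110.0 and 51.3 CPM (log2 -1.10, -1.17 to -1.03).

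Of the genes of the fed state, Fasn, which encodes fatty acid synthase, was at 44.3 CPM in the NCD section against 137.0 CPM in the HFD section (log2 1.63, 1.55 to 1.72). Of 6 genes of the fasted state 1 was past 2-fold, also higher in the HFD section, against 9.3% of all genes. It was Fgf21 (log2 2.21, 1.97 to 2.46), which had 151 NCD UMIs and reached the minimum only with its HFD counts. Pck1 and Cpt1a, the rate-setting enzymes of gluconeogenesis and of fatty acid uptake into mitochondria, had log2 ratios of 0.12 and 0.10. The part of time of day, feeding, temperature or glucocorticoids in the members' ratios was not tested.

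The genes whose pattern over the 6 groups of 3 zones in 2 sections was nearest to that of Dbp were found by the mean absolute difference in centred log2 CPM, over 6416 genes with at least 1000 UMIs. Acer2, an alkaline ceramidase gene, was nearest with 0.065, from 7.13 CPM in the NCD section to 20.8 CPM in the HFD section. It was followed by Arsa (0.137), Gstp3 (0.146), Fasn (0.146) and Slc16a5 (0.150). For Arntl, over 6417 genes, the nearest were Tk1 (0.090), Rpl10-ps3 (0.103), Got1 (0.106), Fetub (0.108) and Rbm3 (0.114). These distances describe 6 groups from 2 animals.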

How the data were processed

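The data are Visium counts of 1 NCD and 1 HFD liver section of 10 µm. Raw UMI counts were deposited for each spot and gene, as Space Ranger 1.3.1 gave them and with no normalization. The genome build in the submitters' processing notes is mm10, and the annotation version and any use of strand are not given in the sources used here. Spot positions and images were not used here. Summed UMIs of a gene were scaled to 1000000 UMIs of the same spots (CPM). Exact intervals were Poisson for sums, Clopper-Pearson for shares of spots and conditional binomial for ratios, at the 95% level, and the interval method was checked on simulated data. There was no test between sections. Spots with at least 1000 UMIs were split by zonal score into 3 zones or 5 bins. Genes were placed with GENCODE M21 (GRCm38), and promoters are from RefSeq GRCm38.p6. The text names the 10 members, genes of each further list past the fold or with the most UMIs, and 5 genes nearest to Dbp and to Arntl. Other genes of the lists are named as context, chosen after their values were seen, and some genes of the lists are not reported here. Members, lists, the zonal genes and motifs were chosen with earlier results of these data known. Alternatives changed the total, the weighting, minimum and depth of spots, the division and genes of the zonal score, the minimum of UMIs per gene, the deepest spots and the subtraction of RNA off tissue (mean UMIs per off-tissue spot taken from each spot over tissue). Scripts ran in Python 3.11.15 with scipy 1.17.1, numpy 2.4.6, matplotlib 3.10.9 and pandas 2.3.3 (seed 1).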

Additional observations from a re-analysis of the deposited data

Results flagged for a closer look

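The slope of Dbp along the lobule ran in opposite directions in the 2 sections. The log2 ratio of the pericentral to the periportal zone was -0.47 (-0.74 to -0.21) in the NCD section and 0.65 (0.56 to 0.74) in the HFD section, a difference of 1.12 (0.84 to 1.41). The interval covers counting error only, and with 1 section per diet the difference was not tested. Both directions were the same under each of the 6 alternatives run, with log2 ratios between -1.15 and -0.40 (NCD) and between 0.59 and 0.75 (HFD).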

How the results depend on the processing

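No paired analysis was possible because each diet has 1 section. Of 84 results and alternatives for the counts and ratios, 73 stayed within 1.5 times the reported count or within the reported 95% interval of the ratio. Counts that stayed at 0 are among the 73. A reversal could be called only for the ratios of clock arms and gene pairs, not for counts, and none of those ratios reversed. Subtracting RNA off tissue moved most: the arm ratio went to 2.47 on the log2 scale and Dbp over Arntl to 4.29, and 3 of the 4 members counted in the NCD lobule passed 1.5-fold on the pericentral and 1 (Dbp) on the periportal side. In the NCD section the subtraction left few UMIs of these members, and no interval was computed for it. The members past 2-fold higher between the sections went from 4 to 6, at the limit of 1.5 times. Subtraction also raised the genes past 2-fold from 992 to 2056 higher and from 196 to 342 lower. Within the periportal and the pericentral zone alone the arm ratio was 1.33 and 1.79, and Dbp over Arntl 2.16 and 3.44. At 3000 UMIs per spot, Nr1d1 over Npas2 was 1.998, and Cry1 passed 1.5-fold on the periportal side in the HFD section (log2 -1.14), making 1 such member. With a minimum of 1000 UMIs per gene, 6 members were counted and 0 were past 2-fold lower, since Arntl has fewer UMIs; 436 genes were higher and 107 lower. With no minimum, 2291 were higher and 1165 lower, so 66.3% of called genes were higher, against 83.5%. The cause was not tested. Npas2 (-1.48 to 0.26) and Cry1 (-0.39 to 0.26) took both signs, and the other 8 members kept theirs between the sections. Depth limits Npas2 in both sections and Ciart in the NCD section, which rest on 73 UMIs in all and on 20 UMIs.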
